A study of Mus musculus with 2 samples.

Results

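The genes described are 43 components and targets of the interferon response, chosen by symbol from a fixed list of names and all found among the 24369 rows of the deposited table. They comprise 4 receptor chains, 6 transcription factors, 4 sensors of foreign or misplaced nucleic acid, 22 genes best known as targets of type I interferon and 7 targets best known for induction by interferon-gamma. Their levels were read in alveolar type 2 cells (type II pneumocytes, the surfactant-making cells of the lung) sorted from whole lungs of wild-type C57BL6 mice born of timed pregnancies. A single library came from mice of postnatal day 7 (P7) and the other from day 28 (P28), with no treatment named in the labels, so the values are those of unstimulated lungs as far as the labels say. The sources used here name neither the sorting markers nor the number of animals behind each library.

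Type I interferons bind a receptor made of IFNAR1 and IFNAR2, whose kinases JAK1 and TYK2 activate STAT proteins, STAT2 among them. With IRF9 these bind a DNA element, the interferon-stimulated response element (ISRE), in front of antiviral genes. Interferon-gamma binds IFNGR1 and IFNGR2, signals through JAK1 and JAK2, and acts through another element, the gamma-activated site (GAS). Many target genes answer to both, so the division into type I and interferon-gamma targets follows the inducer each gene is best known for. In the lung epithelium the pathway is known for defence against respiratory viruses, and a low level of its targets is present without infection.

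Each value is an RPKM, a read number scaled to the gene's length and to the size of the library, so that levels can be compared between genes. The steps between low values gave a denominator of about 17610000 reads for P7 and 24590000 for P28, so 1 read on 1 kilobase was worth 0.0568 and 0.0407 RPKM. With 1 library per age no difference has a replicate check and none was tested. "Higher" and "lower" compare the P28 library with the P7 library, and each ratio of RPKM values, P28 over P7 unless called a fold lower, carries a 95% exact (Clopper-Pearson) interval that covers counting error only. All 11 markers of type 2 cells fixed for the check were abundant, between 47.5 and 24085 RPKM across both libraries. Of 16 leukocyte and macrophage markers, which sum to 7.63 RPKM at P7 and 5.65 at P28, Marco, C1qa, C1qb, C1qc, Adgre1 and Siglecf had no read in either library. Cd14 (3.52 and 2.55 RPKM) and Csf1r (2.23 and 1.49) made up most of these sums. Among the 16, 1 counting interval lay above 1 (Cd68, 0.455 and 1.08 RPKM) and 3 below. The 12 lymphoid and dendritic markers summed to 3.11 RPKM at P7 and 3.11 at P28, mostly from Cd79b (2.84 and 3.02). The 10 endothelial markers summed to 54.9 and 26.4 RPKM and the 9 fibroblast markers to 37.7 and 14.5, none of them at 0. Counting intervals lay below 1 for 9 of the 10 and 7 of the 9. That of Esam (9.68 and 10.2 RPKM) held 1, and those of the fibroblast markers Dcn (0.490 and 1.35) and Pdgfra (0.152 and 0.730) lay above 1. The sum of the 8 airway markers went the other way from these 2 sums, from 7270.5 RPKM at P7 to 19095 at P28, with 6 of 8 at least 2-fold higher. Most of that sum was Scgb1a1, the main secretory protein of club cells (6764 and 18104 RPKM). All of these cell types also use interferon genes, and their part in the values below was not tested. In such bulk libraries, fewer cells of a type and less RNA per cell cannot be told apart. Xist had 52.7 RPKM at P7 and 0.245 at P28, while Ddx3y, a Y-linked gene, was listed at 0 and had 4.01, so sex and age cannot be told apart either.

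The receptors and most transcription factors were present at moderate levels at both ages, whereas most antiviral effectors were low. The median level was 4.32 RPKM at P7 and 3.54 at P28 over the 4 receptor chains, and 2.66 and 2.49 over the 6 transcription factors. It was 0.694 and 0.477 over the 22 type I targets and 0.683 and 0.492 over the 7 interferon-gamma targets, against 0.280 and 0.224 over all rows. Of the 43 genes, 23 reached 1 RPKM at P7, 20 did at P28 and 19 did in both. The highest value was 8.53 RPKM at P7, of Irf2, and 9.27 at P28, of Ifi27. Summed over the 43 genes, the RPKM was 80.1 at P7 and 75.8 at P28.

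**Figure D1:**
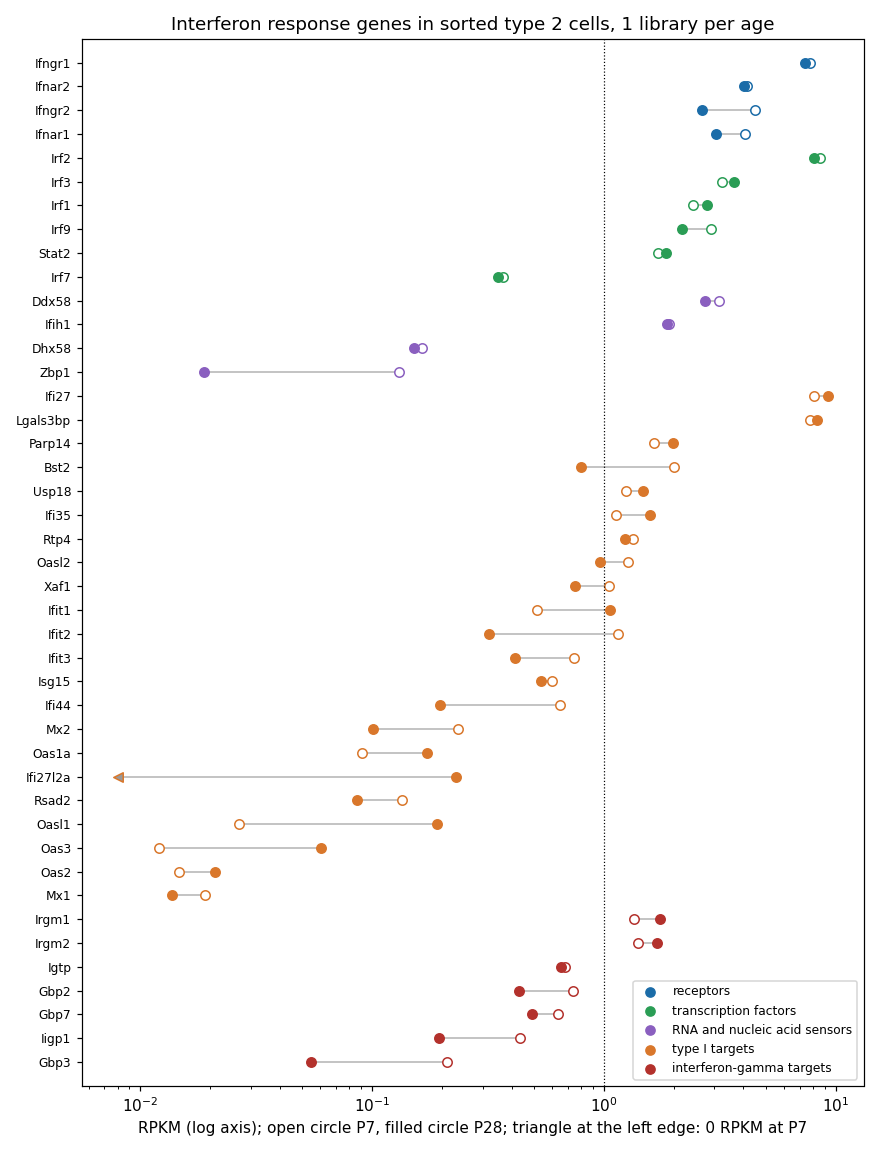
RPKM (log axis) of each of the 43 genes at P7 (open circles) and P28 (filled circles), 1 library per age, coloured by role and ordered by level within it. Receptors lie to the right of 1 RPKM (dotted line), while type I targets spread from 0.0120 RPKM (Oas3 at P7) to 9.27 (Ifi27 at P28), with Ifi27l2a at 0 at P7.

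Both receptors were expressed, and 1 chain of each was lower in the P28 library, with a counting interval wholly below 1. These 2 of 4 chains stand beside 34.0% of all genes with a known length and 1 RPKM or more in at least 1 library. Ifngr1, the ligand-binding chain of the interferon-gamma receptor, had 7.74 RPKM at P7 and 7.36 at P28, a ratio of 0.951 (0.814 to 1.11). Its partner Ifngr2, which brings in the kinase JAK2, had 4.50 and 2.65 RPKM from 328 and 270 reads. That is 1.70-fold lower at P28 (1.44 to 2.0), the receptor chain farthest from equality. For the type I receptor, Ifnar2 had 4.15 and 4.02 RPKM, a ratio of 0.969 (0.815 to 1.15). Ifnar1, the other chain, had 4.05 and 3.05 RPKM and was 1.33-fold lower (1.12 to 1.57). Its reads did not come out as whole numbers, so their number, about 279 and 294, is approximate. The genes Ifnar2 (chr16:91372783-91405589, plus strand, GRCm38), Ifnar1 (chr16:91485238-91507441, plus strand) and Ifngr2 (chr16:91547072-91565623, plus strand) lie close together on chromosome 16, and all 3 are protein coding. With equal totals (each library scaled to the same summed RPKM, which divides every P28 value by 1.32) the intervals of all 4 receptor chains lay below 1. So did those of 50.2% of all genes with a known length and a read.

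Among the transcription factors, Irf2 was the most abundant and Irf7 the least at both ages. Irf2, a factor known as a brake on interferon-driven transcription, had 8.53 RPKM at P7 and 8.05 at P28, above 92.3% and 92.1% of all rows. Irf7, the factor that amplifies type I interferon production and is itself induced by it, had 0.367 and 0.350 RPKM from 12 and 16 reads. Irf3, which is present without stimulation and starts the first wave of interferon transcription, had 3.24 and 3.64 RPKM. These 3 genes had counting intervals of the ratio that held 1, although with equal totals that of Irf2 lay below 1. Irf9, the DNA-binding partner of STAT2, had 2.89 and 2.18 RPKM and was 1.33-fold lower at P28 (1.04 to 1.69), while Stat2 had 1.72 and 1.85 RPKM, a ratio of 1.08 (0.861 to 1.35). Irf1, a rapidly induced target of interferon-gamma, had 2.43 and 2.80 RPKM, a ratio of 1.15 (0.885 to 1.5), which turned to a negative log2 difference with equal totals. The upstream sequence of Irf1 is shown because it holds the interferon-gamma element without the type I element. It is the 250 bases before the RefSeq start at chr11:53769764-53770013 on the plus strand of GRCm38, 5′ to 3′, with the GAS match (TTCNNNGAA) in capitals.
Irf1: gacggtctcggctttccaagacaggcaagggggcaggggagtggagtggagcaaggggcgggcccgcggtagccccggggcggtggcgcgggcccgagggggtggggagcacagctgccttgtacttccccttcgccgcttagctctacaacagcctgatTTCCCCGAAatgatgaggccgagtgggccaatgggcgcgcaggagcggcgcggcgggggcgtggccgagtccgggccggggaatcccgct

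The sensors split by level into a pair above 1 RPKM and a pair near the limit of detection. Ddx58, which encodes the RNA sensor RIG-I, had 3.14 RPKM at P7 and 2.73 at P28 from 273 and 332 reads, a ratio of 0.871 (0.740 to 1.03). Ifih1, which encodes the long double-stranded RNA sensor MDA5, had 1.90 and 1.87 RPKM, a ratio of 0.983 (0.810 to 1.19). In contrast Dhx58, the regulator LGP2 of those sensors, had 0.165 and 0.152 RPKM from 7 and 9 reads. Zbp1, a sensor of left-handed nucleic acid that can start cell death, had 0.131 and 0.0188 RPKM from 5 reads and 1 read, and its ratio of 0.143 has a counting interval of 0.00303 to 1.28. At this depth no difference of Dhx58 or Zbp1 between the libraries was detectable as deposited. With equal totals, which adds no reads, the interval of Zbp1 lay below 1. The intervals of Ddx58 and Ifih1 also lay below 1 with equal totals.

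Of the 22 type I targets, Ifi27 and Lgals3bp stood far above the others. Ifi27, a small membrane protein of mitochondria, had 8.09 RPKM at P7 and 9.27 at P28, a ratio of 1.15 (0.930 to 1.41). Lgals3bp, a secreted glycoprotein that binds galectins, had 7.75 and 8.29 RPKM, a ratio of 1.07 (0.921 to 1.24). The next in level were at 2.0 RPKM or below in both libraries. With equal totals both log2 differences became negative, at -0.18 for Ifi27 and -0.26 for Lgals3bp, and the interval of Lgals3bp lay below 1. Ifi27l2a, a relative of Ifi27, was listed at 0 at P7, where 3 reads would be worth 0.368 RPKM, and had 0.230 RPKM at P28, under the 0.263 that 3 reads would give. No fold is given for it.

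A middle group of type I targets followed at lower levels. Parp14, an ADP-ribosyltransferase, had 1.65 RPKM at P7 and 2.0 at P28 from 211 and 356 reads, a ratio of 1.21 (1.02 to 1.44). Usp18, the protease that removes ISG15 from proteins and dampens receptor signalling, had 1.25 and 1.47 RPKM, while Isg15 itself, the ubiquitin-like modifier, had 0.601 and 0.538 RPKM from only 8 and 10 reads. Ifi35 had 1.13 and 1.58 RPKM and Rtp4, a chaperone of receptor proteins, had 1.34 and 1.24. Xaf1, a promoter of apoptosis, had 1.06 and 0.75 RPKM, and Oasl2, a relative of the oligoadenylate synthetases, 1.27 and 0.959. For these genes other than Parp14 the counting interval of the ratio held 1, and with equal totals the interval of Parp14 held 1 too, while those of Xaf1 and Oasl2 lay below 1.

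Bst2, Ifit2 and Ifi44 were the type I targets whose counting intervals lay wholly below 1, and they were lower at P28 by 2.51-fold or more. They are 3 of 22, beside 26.1% of all genes with a known length and a read. Bst2, also called tetherin, which holds budding viruses at the cell surface, had 2.0 RPKM at P7 and 0.796 at P28 from 27 and 15 reads (2.51-fold lower, 1.29 to 5.08). Ifi44 had 0.644 and 0.196 RPKM from 33 and 14 reads (3.29-fold lower, 1.71 to 6.66). All 3 intervals stayed below 1 with equal totals. On the scale of log2(RPKM + 1), which understates differences of low genes, Bst2 was at -0.74, Ifit2 at -0.70 and Ifi44 at -0.46, all within 2-fold.

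Genes of the Ifit cluster, whose proteins bind viral RNA, differed in opposite directions. Ifit2 (chr19:34550694-34576419, plus strand, GRCm38, protein coding) had 1.15 RPKM at P7 and 0.319 at P28 from 80 and 31 reads, 3.60-fold lower (2.35 to 5.65). Ifit3 (chr19:34583531-34588731, plus strand) had 0.744 and 0.415 RPKM, 1.79-fold lower with an interval of 0.922 to 3.53 that holds 1. Ifit1 (chr19:34640871-34650009, plus strand) had 0.517 and 1.06 RPKM, a ratio of 2.06 (1.28 to 3.42). Thus Ifit2 was the highest of the 3 at P7 and the lowest at P28, and Ifit1 the reverse. The reads of Ifit1 and Ifit3 did not come out as whole numbers and near copies of both exist in the mouse, so reads may have been shared among copies. With equal totals the interval of Ifit1 held 1, while that of Ifit3 lay below 1.

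The sequences upstream of type I targets are shown for 4 genes that differed in level and direction and all hold the type I element. Each is the 250 bases before the RefSeq start (GRCm38), 5′ to 3′ on the gene's strand, with ISRE matches (GAAANNGAAA or its reverse complement TTTCNNTTTC) and GAS matches in capitals. Ifit1 (chr19:34640639-34640888, plus strand) and Ifit3 (chr19:34583279-34583528, plus strand) hold the same 2 ISRE matches, TTTCACTTTC and TTTCAGTTTC, beginning 104 and 85 bases before the start in Ifit1 and 156 and 122 in Ifit3. Isg15 (chr4:156200819-156201068, minus strand) has 3 overlapping ISRE matches that merge into 1 run of capitals. In Bst2 (chr8:71537473-71537722, minus strand) a GAS match overlaps the first of 2 overlapping ISRE matches.
Ifit1: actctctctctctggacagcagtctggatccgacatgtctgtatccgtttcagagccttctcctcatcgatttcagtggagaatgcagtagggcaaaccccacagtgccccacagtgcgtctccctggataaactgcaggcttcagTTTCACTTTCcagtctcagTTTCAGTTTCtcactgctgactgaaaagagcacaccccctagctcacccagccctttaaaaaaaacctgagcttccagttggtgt
Ifit3: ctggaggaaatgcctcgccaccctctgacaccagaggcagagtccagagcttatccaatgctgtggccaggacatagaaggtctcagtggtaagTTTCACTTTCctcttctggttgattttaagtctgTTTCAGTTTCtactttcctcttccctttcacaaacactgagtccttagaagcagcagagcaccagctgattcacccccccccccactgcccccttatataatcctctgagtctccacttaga
Isg15: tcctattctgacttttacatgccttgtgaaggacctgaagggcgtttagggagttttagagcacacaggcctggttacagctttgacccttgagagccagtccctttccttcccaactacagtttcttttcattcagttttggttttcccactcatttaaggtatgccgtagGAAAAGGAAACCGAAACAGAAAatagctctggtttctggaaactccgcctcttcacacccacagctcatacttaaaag
Bst2: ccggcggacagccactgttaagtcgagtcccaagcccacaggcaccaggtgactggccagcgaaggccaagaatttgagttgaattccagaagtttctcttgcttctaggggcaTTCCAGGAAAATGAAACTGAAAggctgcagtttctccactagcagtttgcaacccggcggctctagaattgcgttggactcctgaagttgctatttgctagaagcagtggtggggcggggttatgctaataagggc

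Unlike Oasl2, the other members of the oligoadenylate synthetase and Mx families had 10 reads or fewer in each library. The synthetases make the messenger that activates RNase L, and Oas1a had 3 and 8 reads, Oas2 1 and 2, and Oas3 1 and 7, all under 0.2 RPKM. Oasl1, a regulator of IRF7 translation, had 0.0267 RPKM from 1 read at P7 and 0.191 from 10 reads at P28, a ratio of 7.16 whose interval runs from 1.02 to 311. Mx1, a dynamin-like antiviral GTPase known to be truncated in common laboratory strains, had 1 read in each library. Mx2, a polymorphic pseudogene in the annotation, had 10 and 6. Rsad2, which encodes viperin, had 9 and 8 reads. In this group Oasl1 alone had an interval off 1, and with equal totals it held 1, while that of Mx2 lay below 1. Oas1a has close copies that are not members. Of these Oas1c had 0.621 and 0.480 RPKM from 25 and 27 reads. Oas1b, also annotated as a polymorphic pseudogene, had 0.587 and 0.0885 RPKM from 19 and 4. Oas1g was listed at values as small as 2.35e-27 RPKM, which no whole read can give.

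The interferon-gamma targets are guanylate-binding proteins and immunity-related GTPases, and in each family 1 member, Gbp3 and Iigp1, had a counting interval wholly below 1. These 2 of 7 genes stand beside 26.1% of all genes with a known length and a read. Both families are GTPases that attack the vacuoles of intracellular parasites and bacteria. Of the guanylate-binding proteins, Gbp2 had 0.740 RPKM at P7 and 0.431 at P28 from 32 and 26 reads, a ratio of 0.582 (0.333 to 1.01). Gbp7 had 0.636 and 0.492 RPKM, a ratio of 0.773 (0.541 to 1.11). Gbp3 had 0.210 and 0.0547 RPKM from 11 and 4 reads, 3.84-fold lower (1.14 to 16.5). Of these 3, the interval of Gbp3 excluded 1 as deposited, and all 3 did with equal totals. Among guanylate-binding proteins that are not members, only Gbp4 and Gbp9 had an interval off 1, below it as deposited and with equal totals. That of Gbp6 held 1. Gbp6 had 0.921 and 1.06 RPKM (ratio 1.15, 0.738 to 1.80), while Gbp4 had 0.526 and 0.215 (2.44-fold lower, 1.45 to 4.22) and Gbp9 0.766 and 0.481 (1.59-fold lower, 1.03 to 2.45). The genes lie in 1 cluster on chromosome 3, Gbp7 at chr3:142530342-142550149, Gbp3 at chr3:142560026-142573209 and Gbp2 at chr3:142620602-142638008, on the plus strand of GRCm38.

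Irgm1 and Irgm2, regulators that keep the effector GTPases off the cell's own membranes, were the interferon-gamma targets above 1 RPKM. Irgm1 had 1.35 RPKM at P7 and 1.75 at P28, a ratio of 1.3 (0.918 to 1.85). Irgm2 had 1.4 and 1.70 RPKM, a ratio of 1.21 (0.920 to 1.6). On the log2 scale both ratios changed sign with equal totals. Igtp had 0.683 and 0.654 RPKM. Iigp1, an effector GTPase, had 0.436 and 0.195 from 24 and 15 reads, 2.23-fold lower (1.13 to 4.58). Igtp and Irgm2 overlap on the plus strand of chromosome 11 in the annotation (58199556 to 58207591 and 58199618 to 58222782), and the reads of neither came out whole, so how reads were divided between them is uncertain.

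Upstream sequences of interferon-gamma targets are shown for 1 gene with a lower value at P28 and for the pair above 1 RPKM, in the same format and build. Gbp3 (chr3:142559794-142560043, plus strand) and Irgm1 (chr11:48871421-48871670, minus strand) each hold 2 overlapping ISRE matches within 45 bases of the start. Irgm2 (chr11:58214727-58214976, plus strand) holds a GAS match that begins 75 bases before the start and an ISRE match that begins 64 bases before it.
Gbp3: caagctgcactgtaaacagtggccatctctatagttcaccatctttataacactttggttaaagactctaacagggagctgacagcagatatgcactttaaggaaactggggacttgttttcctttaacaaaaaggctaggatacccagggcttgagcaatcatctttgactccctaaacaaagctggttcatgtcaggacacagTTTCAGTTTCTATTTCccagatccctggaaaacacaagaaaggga
Irgm1: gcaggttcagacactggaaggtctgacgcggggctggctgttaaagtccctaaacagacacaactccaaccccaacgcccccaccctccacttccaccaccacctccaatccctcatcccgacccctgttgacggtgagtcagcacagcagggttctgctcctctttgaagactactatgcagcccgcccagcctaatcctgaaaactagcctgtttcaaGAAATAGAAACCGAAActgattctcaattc
Irgm2: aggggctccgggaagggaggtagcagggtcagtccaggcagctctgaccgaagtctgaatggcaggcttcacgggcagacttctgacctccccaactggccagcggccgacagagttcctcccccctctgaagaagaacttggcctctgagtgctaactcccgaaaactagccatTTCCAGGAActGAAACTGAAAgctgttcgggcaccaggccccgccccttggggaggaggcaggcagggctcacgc

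Across the 32 members whose upstream sequence was in the RefSeq table, 15 (46.9%) held an ISRE match on either strand and 9 (28.1%) a GAS match, a palindrome, against 3.46% and 8.13% of all 27025 genes in the table. Where a gene had several starts, a match in any of its windows counted. By role, ISRE matches were found in 6 of 6 interferon-gamma targets, 7 of 14 type I targets, 2 of 6 transcription factors, 0 of 4 receptors and 0 of 2 sensors. GAS matches were found in 3 of 6 interferon-gamma targets, 3 of 14 type I targets, 2 of 6 transcription factors, 1 of 4 receptors and 0 of 2 sensors. The 6 interferon-gamma targets are Gbp2, Gbp3, Gbp7, Igtp, Irgm1 and Irgm2, among them genes with higher and with lower values at P28. Ifit2 held no ISRE match in these windows and Ifi44 held neither element, although both had lower values at P28, as did Bst2, which holds both. A match describes the letters only.

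No member was 2-fold higher or lower at P28 on the scale of log2(RPKM + 1), among genes that reached 1 RPKM at either age. Of all 9653 such rows, 1.18% were 2-fold higher and 1.96% lower. The 24 members that passed this filter, 5 of them (Ifit1, Ifit2, Oasl2, Bst2 and Xaf1) through 1 library only, had 11 values above 0 and 13 below, from -0.74 (Bst2) to 0.44 (Ifit1). Their median was -0.03, beside -0.08 over all rows tested, of which 60.7% were below 0. By role the median was -0.19 over 4 receptors, 0.07 over 5 transcription factors, -0.08 over 2 sensors, 0.09 over 11 type I targets and 0.20 over 2 interferon-gamma targets. Over all 7 interferon-gamma targets, without the filter, it was -0.13, since the 5 under 1 RPKM had lower values at P28. Scaling both libraries to equal totals moved the median of all rows by -0.28 to -0.36 and that of the members to -0.26. It left 2 members above 0 (Ifit1 and Ifi35) and 22 below, while 87.0% of all rows tested were then below 0.

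**Figure D2:**
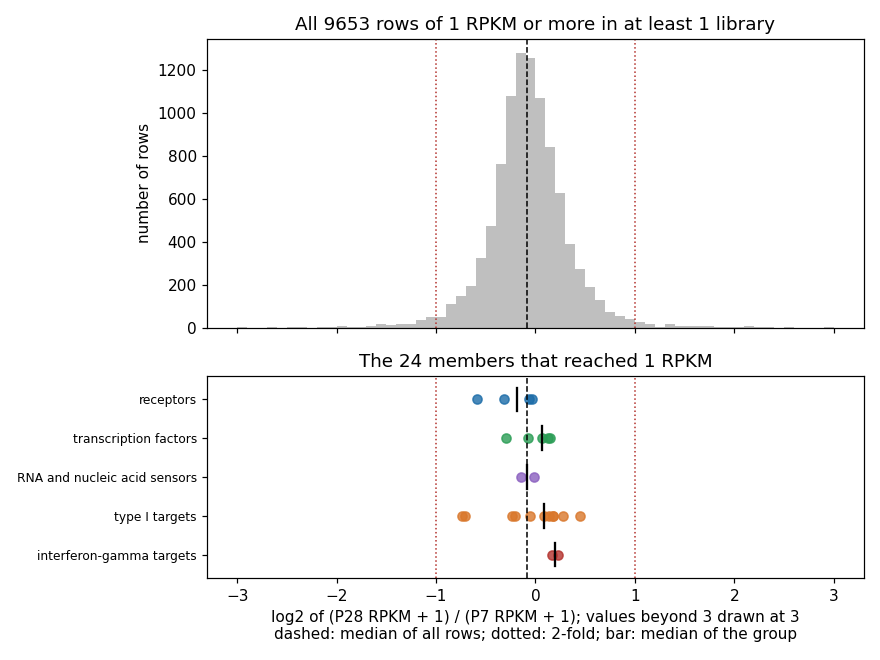
Top, log2 of (P28 RPKM + 1) over (P7 RPKM + 1) for all 9653 rows that reached 1 RPKM, as a histogram; bottom, the same value for the 24 members that reached it, by role, with a bar at each median. All 24 lie between the dotted 2-fold lines, from -0.74 to 0.44, around the median of all rows (dashed, -0.08).

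In plain ratios, 3 of the 43 members (6.98%) had a counting interval wholly above 1, namely Ifit1, Oasl1 and Parp14. The same held for 12.6% of the 16387 genes with a known length and a read. For 8 members (18.6%) the interval lay wholly below 1, namely Ifnar1, Ifngr2, Irf9, Bst2, Ifit2, Ifi44, Gbp3 and Iigp1, against 26.1% of genes. Both shares were under the background, and 12 members had fewer than 20 reads in the 2 libraries together, too few to show modest differences. Among the 24 members that reached 1 RPKM, 2 intervals lay above 1 and 5 below, against 18.4% and 34.0% of genes at that level. With equal totals the counts over all members became 0 above, against 3.91% of genes, and 21 below (48.8%), against 50.2%.

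**Figure D3:**
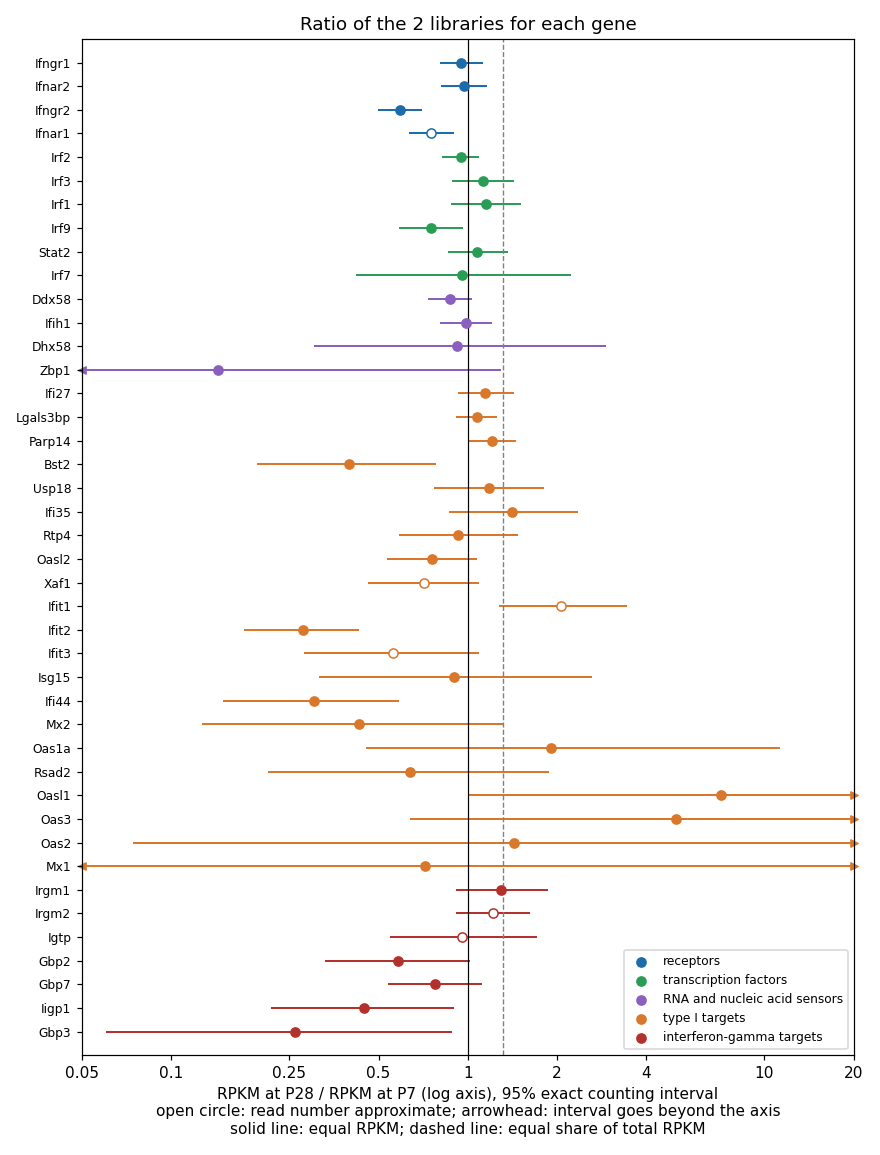
Ratio of P28 RPKM to P7 RPKM (log axis) with its 95% exact counting interval for the 42 members with a read at P7, coloured by role. Most intervals cross the solid line of equal RPKM (dashed line, equal share of total RPKM), 8 lie wholly below it, with Ifit2 at 0.277 and Gbp3 at 0.260 lowest among them, and 3 lie above it.

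Other genes of the pathway, from lists that hold no member, ran from silent ligand genes to well expressed kinases. Of 21 interferon genes, 20 had no read in either library, among them Ifnb1, for which 3 reads would be worth 0.227 RPKM at P7 and 0.163 at P28, and Ifng (0.141 and 0.101). Ifnk, interferon kappa, had 7 and 12 reads. The kinase gene Jak1 had 8.05 RPKM at P7 and 6.98 at P28, Jak2 5.54 and 6.11, and Tyk2 0.757 and 0.843. Among the 11 of 13 kinases, STATs and regulators that reached 1 RPKM none was 2-fold apart on the log2(RPKM + 1) scale, and the most abundant were Stat3 (11.5 and 14.0 RPKM) and Pias1, a STAT inhibitor (10.3 and 8.42). In plain RPKM, Ptpn6, a phosphatase of blood cells that dampens kinase signalling, had 1.73 at P7 and 0.786 at P28 and was 2.20-fold lower (1.51 to 3.24). None of the 8 of 12 genes of sensing upstream of interferon that did so was 2-fold apart on that scale, with Trim25, a ubiquitin ligase for RIG-I, at 10.1 and 10.4 RPKM and the kinase gene Tbk1 at 5.47 and 5.93. Nor was any of the 4 of 7 other genes of the IRF family or its partners. Irf2bp2, a corepressor that binds IRF2, had 43.3 and 53.6 RPKM.

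Other type I targets held genes far more abundant than any member. Of 37 in the table, 24 reached 1 RPKM. Among them Ly6e, a surface protein known to restrict coronavirus entry, was 2-fold higher at P28, with 43.4 RPKM at P7 and 88.7 at P28, a ratio of 2.04 (1.95 to 2.14), and none was lower. With equal totals its log2 difference went from 1.01 to 0.62, so that it was no longer 2-fold higher. Ifitm2 and Ifitm3, which block virus entry at endosomes, had 33.8 and 34.2 RPKM and 21.3 and 25.4. Of 24 other interferon-gamma targets, 7 reached 1 RPKM and none was 2-fold apart on the log2(RPKM + 1) scale. Over the whole list of 24 genes, 4 counting intervals lay above 1, 3 below and 12 held 1, while the rest had no read to give one. Of all genes with a known length and a read, 12.6% lay above and 26.1% below. The most abundant on that list were Tapbp, a peptide-loading chaperone (5.74 and 7.57 RPKM), and the immunoproteasome genes Psmb8 (1.58 and 2.93, ratio 1.85, 1.23 to 2.84) and Psmb9 (1.69 and 2.32). The intervals of Psmb8 and Tapbp lay above 1 as deposited and held 1 with equal totals. Ciita, the switch for MHC class II genes, had 1.1 and 0.570 RPKM and was 1.93-fold lower (1.44 to 2.58), with an interval that stayed below 1 with equal totals.

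**Figure D4:**
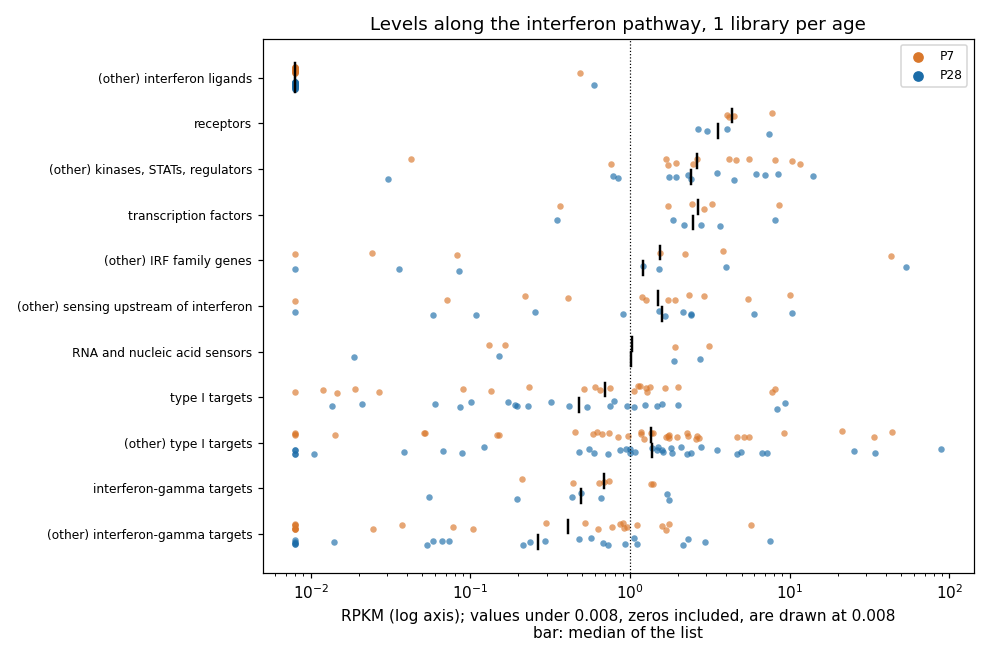
RPKM (log axis) at P7 (orange) and P28 (blue) along the pathway, each point 1 gene, with a bar at the median of each list; lists marked (other) hold no member. Ligand genes sit at the left edge, where values under 0.008 are drawn, except Ifnk, while receptors have medians of 4.32 and 3.54 RPKM and type I targets among the members 0.694 and 0.477.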

How the data were processed

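Total RNA of sorted type II pneumocytes was reverse transcribed, made into Nextera XT libraries and sequenced in pairs, per the labels' protocols. TopHat, TopHat2 2.0.9, GRCm38 and mm10 appear in the submitters' processing notes without a role. Per the file headers the authors deposited RPKM, with a column for each library. The sources used here do not name the program behind the RPKM, its annotation, its filters or its use of strand. Column titles matched the sample titles, and 0 columns were left unused.

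The commonest low ratio between the libraries, 0.716 in 322 of 3031 low rows, is that of genes with equal read numbers. With GENCODE M21 lengths (23986 rows matched, older symbols included) it gave the worth of 1 read. Whole reads in both libraries, within the rounding of values of 6 digits, were sought over whole-base lengths from 0.75 to 1.35 times the longest RefSeq-matched transcript. They were found for 82.9% of 13637 genes of up to 500 reads and for 36 of the 43 members. The other 7 (Ifnar1, Ifit1, Ifit3, Ifi27l2a, Xaf1, Igtp and Irgm2) took approximate numbers from that transcript. This recovery was chosen after the data were seen. Intervals, and floors of 3 reads, cover counting error only, since PCR copies of a molecule cannot be recognised here. No test was possible with a single library at each age.

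A gene was called at 2-fold on log2((P28 + 1)/(P7 + 1)) if it reached 1 RPKM at either age. Differences of low genes are understated by the pseudocount of 1. Alternatives changed the pseudocount, filter, scaling and length. Every member may be named. In each pathway list the named genes include Jak1, Jak2, Tyk2, genes called, and up to 3 of the highest mean RPKM. Ifnb1, Ifng, Oas1b, Oas1c, Oas1g, Gbp4, Gbp6, Gbp9, Ptpn6, Ciita, Scgb1a1, Cd14, Csf1r, Cd68, Cd79b, Dcn, Pdgfra and Esam were named after their values were seen. Ifit3b and Ifi27l1, also on these lists, matched no row and were not analysed here. Members and lists were chosen with earlier results of these data known. Upstream sequences are RefSeq's (GRCm38.p6), for 32 of the 43 members. The steps were tested on simulated data. Python 3.11.15, numpy 2.4.6, pandas 2.3.3 and scipy 1.17.1 were used. The values of 1 gene that this rule also names are not reported here.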

Additional observations from a re-analysis of the deposited data

How the results depend on the processing

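No member was 2-fold higher or lower under any scaling or filter tried. With a pseudocount of 0.1 in place of 1 RPKM, 2 of 24 members were lower, Ifit2 (log2 -1.58) and Bst2 (-1.23), against 5.49% of all rows. Both passed the filter only through the P7 library, where their values are higher, so the filter favoured a lower call for them. Setting the median of all rows tested to 0 put the member median at 0.056, and equal upper quartiles put it at 0.0001. Under both of these scalings each role median moved by less than 0.1, and 0 single members moved beyond their counting error. Equal totals moved the median log2 ratio to -0.26 for all members, -0.51 for receptors, -0.18 for transcription factors, -0.34 for sensors, -0.26 for type I targets and -0.040 for interferon-gamma targets. The last, 0.20 over 2 genes as reported, was 0.31 and 0.077 with pseudocounts of 0.1 and 5, and -0.13 over 7 genes without the filter. Among genes of 5 RPKM or more, 1 receptor gave -0.063 and 1 transcription factor -0.073, and no sensor or interferon-gamma target was left to give a value. Counting intervals wholly above 1 numbered 0 with equal totals and 1 with mean transcript lengths (an alternative chosen after seeing the data), in place of 3. Those wholly below 1 numbered 21 with equal totals, in place of 8. With equal totals every P28 value is divided by 1 factor, so all ratios move down. For mean lengths the cause was not tested. Of 148 values of single members under alternatives, 137 moved by less than the counting error (the log2 distance from the ratio to the bound of its interval) and 9 of the other 11 moved with equal totals.

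No paired analysis was possible because each age has 1 library. The number of reads limits members such as Mx1, with 1 read in each library, for which no difference was detectable at this depth.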
